A study of Mus musculus with 10 samples.

Results

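The 10 genes described here encode transcription factors that set the identity of dendritic cells: Zbtb46, Irf4, Irf8, Batf3, Id2, Bcl6, Nfil3, Bcl11a, Tcf4 and Zeb2. They were chosen by name, for their known roles in this lineage, from the 28585 genes of the deposited count table. The choice was made with earlier results of these data known. All 10 were among the 15151 genes whose counts were high enough to be tested. RNA was sequenced from fluorescent cells sorted out of the ischemic hemisphere of mouse brain, in 3 groups that all carried the lesion. No uninjured brain is compared here, so every difference is between sorted populations within ischemic tissue.

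Microglia, the resident macrophages of the brain, came from CX3CR1CreERT2:Rosa26-tdT females of 13 to 14 weeks (libraries microglia 39, 40 and 41). In that strain an inducible Cre (CreERT2) driven by Cx3cr1 switches on a red reporter. The label thus marks cells in which Cx3cr1 was active at induction, and Cx3cr1 is not a microglia-restricted gene. CD11c-eYFP+ cells came from C57BL/6 females of 15 to 16 weeks that shared their circulation with a Tg(Itgax-Venus)1Mnz partner (parabiotic 3, 11 and 15). In these animals a yellow cell in the brain carries the partner's transgene. Parabiotic 15 was placed by its title and age, because its labels give C57BL/6 as strain, Tg(Itgax-Venus)1Mnz as genotype, and neither a cell type nor a sex. CD11c-eYFP+ cells also came from Tg(Itgax-Venus)1Mnz females of 13 to 14 weeks (transgenic 23, 24, 26 and 27). The transgene is driven by the promoter of Itgax, which encodes CD11c, and any cell that activates it, resident or infiltrating, can be sorted. Age, surgery and reporter strain differ together with the groups and cannot be told apart from them. The labels do not say whether a library is 1 animal or a pool, so p-values measure the spread between these libraries, which may be technical in part.

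Dendritic cells take up antigen and present it to T cells. Conventional dendritic cells arise from bone marrow precursors under the cytokine FLT3L, and Zbtb46 is expressed from their committed precursor onward. They divide into type 1 cells (cDC1), which depend on Irf8, Batf3, Id2 and Nfil3 and cross-present antigen to CD8+ T cells, and type 2 cells (cDC2), which rely on Irf4 and present mainly to CD4+ T cells. Plasmacytoid dendritic cells, the interferon producers, depend on Tcf4, Bcl11a and Zeb2. The factors restrain one another: ID2 binds E proteins such as TCF4 and blocks their contact with DNA, and NFIL3 and ZEB2 repress each other along the route to cDC1. Several are not restricted to dendritic cells, since microglia need Irf8 and lymphocytes use Irf4, Bcl6 and Bcl11a.

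Library totals ran from 31534625 to 41730688 counts. The 10 microglia markers summed to 20676 to 23297 CPM (counts scaled to library size) in the microglia libraries, 2079 to 3635 in the parabiotic and 6373 to 18494 in the transgenic ones. The 17 markers of conventional dendritic cells, which include Flt3, summed to 29.7 to 33.2, 1450 to 1967 and 215 to 924 CPM in the same order. In the microglia libraries only H2-Eb2 of these markers was at 0. The transgenic libraries were uneven: transgenic 23 and 24 held 924 and 863 CPM of these markers, transgenic 26 held 215 and transgenic 27 held 421. Transgenic 26 and 27 also carry library numbers that lie apart from those of the other libraries, and the transgenic fold changes below are given with and without them. Monocyte markers summed to 70.9 to 150 CPM in microglia and 1303 to 1529 in parabiotic libraries. In transgenic 23, 24, 26 and 27 they summed to 613, 772, 408 and 1630 CPM, so 26 was the lowest of these and 27 the highest. Monocyte markers, like dendritic cell markers, were thus higher in the yellow cells. Neutrophil markers summed to 0.452 to 2.6 CPM in microglia, 51.1, 952 and 179 in parabiotic 3, 11 and 15 and 18.1 to 50.7 in transgenic libraries. Of the 5 tested, 4 rose in parabiotic cells against microglia, where 17.4% of all genes tested rose. The number called, out of 8 listed, ran from 1 to 8 under the alternative settings. The part of monocyte and neutrophil transcripts in the values of the factors was not tested. In bulk RNA, fewer cells of a type and less RNA per cell cannot be told apart.

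Per kilobase of exon, which allows levels to be compared between genes, the factors spanned a wide range in every group. Id2 had the highest mean in all 3 groups, at 187, 174 and 275 CPM per kb in microglia, parabiotic and transgenic libraries, but in parabiotic libraries its range overlapped that of Nfil3. Irf8 ranked next in microglia at 101 CPM per kb, ahead of Nfil3 at 28.2, and the libraries of these neighbours did not overlap. In parabiotic libraries Nfil3 at 152 CPM per kb stood above Irf8 at 67.2, again without overlap, whereas in transgenic libraries Nfil3 at 84.6 and Irf8 at 75.4 overlapped. Zeb2 and Bcl6 followed in all 3 groups, at 17.2 to 17.5 and 13.1 to 16.8 CPM per kb. Bcl11a was the lowest of the 10 in every group, with means of 0.0472, 1.19 and 0.561 CPM per kb. Zbtb46 stood just above it, at 0.843, 3.52 and 1.82 CPM per kb, and in the transgenic group their libraries overlapped. These per-length values use the merged exons of GENCODE and fall short for a gene with long untranslated ends or unused exons, such as Tcf4.

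**Figure D1:**
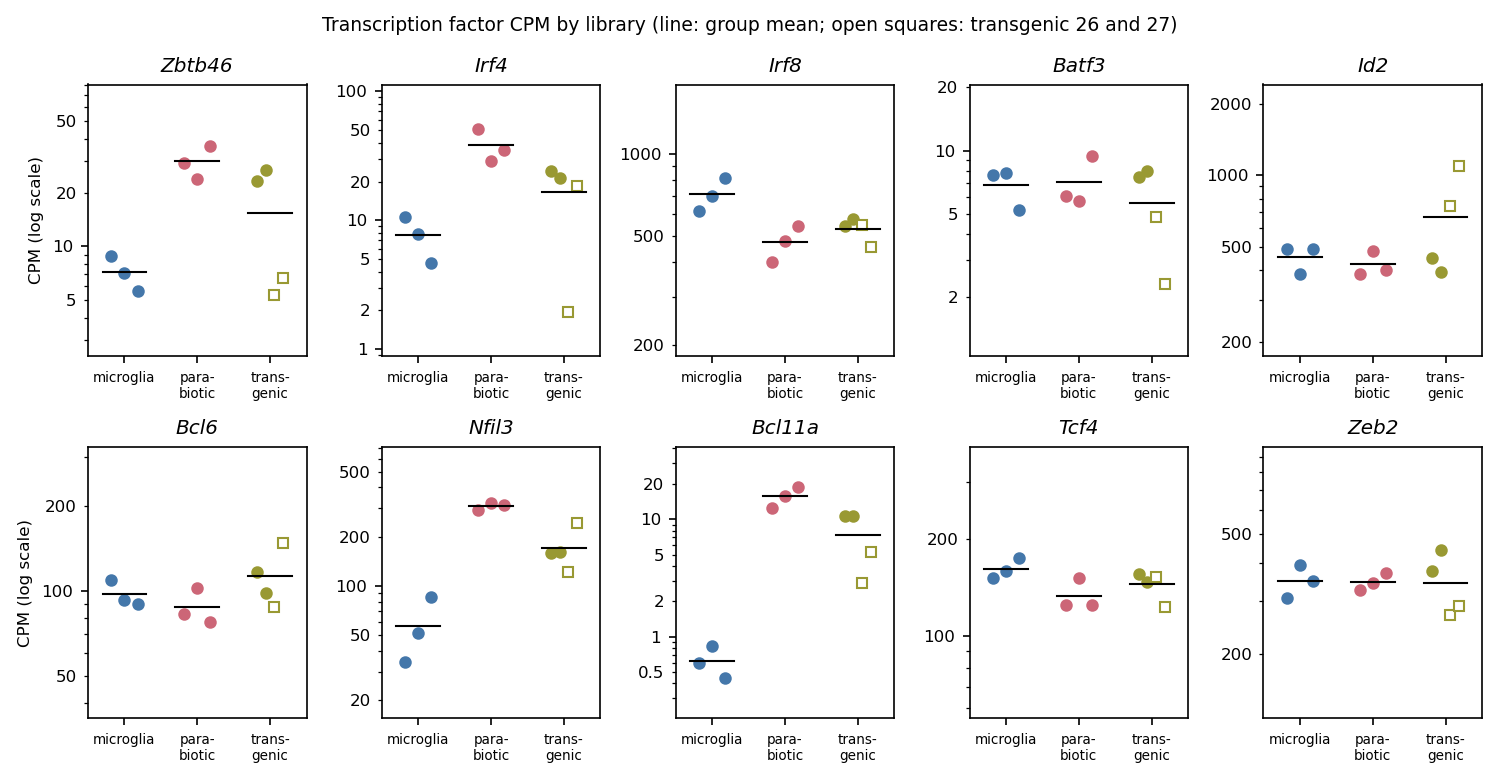
Each panel plots 1 transcription factor, with CPM on a log scale against group; points are libraries, lines are group means, and open squares are transgenic 26 and 27. Bcl11a and Nfil3, lower in microglia, and Irf8, higher in microglia, separate the microglia from all other libraries. Batf3, Bcl6, Tcf4 and Zeb2 overlap between all groups.

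Zbtb46 encodes a zinc finger repressor that marks conventional dendritic cells and their committed precursors and is little expressed in other myeloid cells. Microglia 39, 40 and 41 held 8.81, 7.06 and 5.63 CPM, and parabiotic 3, 11 and 15 held 29.4, 23.7 and 36.6. Transgenic 23 and 24 held 23.2 and 26.6 CPM, and transgenic 26 and 27 held 5.36 and 6.7. The parabiotic libraries all lay above the microglia, and the transgenic group was split, with 23 and 24 at or near the parabiotic level and 26 and 27 at or near that of microglia. The mean rose from 7.17 ± 1.59 CPM (SD, n = 3) in microglia to 29.9 ± 6.49 (SD, n = 3) in parabiotic cells, a log2 difference of 2.06 ± 0.55 (SE, edgeR's quasi-likelihood test with Benjamini-Hochberg adjustment over all genes tested, adjusted p = 0.0135). Leaving out microglia 40 or 41 raised the edgeR adjusted p to 0.0538 and 0.0573. Over all 4 transgenic libraries the mean was 15.5 ± 11 CPM (SD) and the log2 difference from microglia of 1.11 ± 0.51 did not pass (edgeR adjusted p = 0.161). With a term for the separate library numbers, so that transgenic 23 and 24 set the group mean, the difference was 1.79 (edgeR adjusted p = 0.00117), and it was also 1.79 without them (edgeR adjusted p = 0.000293). The summed dendritic cell markers showed the same split between these libraries, and microglia markers summed to 18494 CPM in transgenic 26 but 6373 in transgenic 27; the part of either in the Zbtb46 values was not tested.

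The gene lies on chromosome 2 from 181387762 to 181459426 on the minus strand (GRCm38). The 250 bases before its RefSeq start (chr2:181424389-181424638, GRCm38.p6, minus strand) lie inside the longer GENCODE gene and outside its exons. They hold 0 CG pairs, and whether they act as a promoter or are only intron sequence was not tested. They are shown because Zbtb46 is the defining factor of the lineage, with an AP-1 site (TGACTCA) and E-boxes (CANNTG) in capitals.
Zbtb46: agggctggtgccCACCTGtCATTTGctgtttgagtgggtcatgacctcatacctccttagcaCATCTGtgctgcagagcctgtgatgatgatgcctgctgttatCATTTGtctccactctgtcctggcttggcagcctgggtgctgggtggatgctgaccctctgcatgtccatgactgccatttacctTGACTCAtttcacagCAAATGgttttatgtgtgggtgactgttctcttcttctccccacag
AP-1 sites bind JUN and BATF proteins, and E-boxes bind E proteins such as TCF4 and, in the form CACCTG, ZEB2. The AP-1 match lies at bases -61 to -55 and CACCTG at -238 to -233, counted back from the start. Of 32851 RefSeq promoters, 6.75% held an AP-1 match and 17.2% held CACCTG in the same window on either strand.

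Bcl11a, a zinc finger factor required for B cells and for plasmacytoid dendritic cells, showed the widest separation of the 10. Microglia 39, 40 and 41 held 21, 27 and 14 counts, a mean of 0.622 ± 0.194 CPM (SD, n = 3). The parabiotic libraries held 12.4, 15.9 and 18.8 CPM, and the transgenic ones 10.7, 10.7, 2.86 and 5.29 CPM in the order 23, 24, 26 and 27. No library of either yellow population reached down to the microglia, and within the transgenic group 26 and 27 were again the lower ones. Parabiotic cells exceeded microglia by 4.65 ± 0.53 on the log2 scale, or 25.1-fold (SE, edgeR adjusted p = 7.04e-05). Transgenic cells exceeded them by 3.56 ± 0.50, or 11.8-fold (SE, edgeR adjusted p = 0.00119), and by 4.09 without transgenic 26 and 27 (edgeR adjusted p = 3.31e-06). Both calls kept their direction and side of the threshold under every alternative run. An antisense gene, 4930538E20Rik, shares 316 exon bases with Bcl11a and held 4 counts over all libraries.

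B cells also use Bcl11a, and their markers were measured beside it. The summed B cell markers were 16.9 to 18.5 CPM in microglia, 24.6 to 32.5 in parabiotic and 7.84 to 22.6 in transgenic libraries. In microglia most of that sum was Cd79b, at 16.9 ± 0.796 CPM (SD, n = 3), against 13.2 ± 5.89 (SD, n = 3) in parabiotic cells. Jchain, the joining chain of secreted antibodies, reached 11.2 ± 4.73 CPM in parabiotic cells, against 0.0528 ± 0.0914 in microglia and 2.55 ± 2.46 in transgenic cells (SD). None of the B cell markers was at 0 in every library of a group, and their part in the Bcl11a difference was not tested. Among markers of plasmacytoid dendritic cells, Siglech, which microglia also express, fell by 4.64 ± 0.65 on the log2 scale in parabiotic cells (SE, edgeR adjusted p = 0.00029), and Ccr9 rose by 3.36 ± 0.74 (SE, edgeR adjusted p = 0.00496). In all, 3 of the 9 tested plasmacytoid markers rose, 3 fell and 3 did not pass. Of all genes tested, 17.4% were called higher and 17.9% lower in this comparison. The 6 plasmacytoid markers called became 2 to 8 under the alternative settings.

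Bcl11a lies on chromosome 11 from 24078056 to 24174123 on the plus strand. Of the 250 bases before its RefSeq start, the 225 that lie outside annotated exons are shown (chr11:24080445-24080669, GRCm38.p6, plus strand), because this gene differed most; capitals mark its only motif match, an E-box.
Bcl11a: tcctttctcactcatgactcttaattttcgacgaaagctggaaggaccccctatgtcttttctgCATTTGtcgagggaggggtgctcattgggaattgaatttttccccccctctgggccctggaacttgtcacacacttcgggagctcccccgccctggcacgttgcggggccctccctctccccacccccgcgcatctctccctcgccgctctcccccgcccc

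Irf4, the interferon regulatory factor of cDC2 and of activated lymphocytes, was higher in the parabiotic cells. Its levels were 10.7, 7.8 and 4.69 CPM in microglia 39, 40 and 41 and 51.4, 29 and 35.1 CPM in parabiotic 3, 11 and 15. In transgenic 23, 24, 26 and 27 they were 24.1, 21.4, 1.95 and 18.5 CPM. Transgenic 26 lay below every microglia library, whereas the other transgenic libraries lay above all microglia and below all parabiotic libraries. Parabiotic cells exceeded microglia by 2.31 ± 0.68 on the log2 scale (SE, edgeR adjusted p = 0.021). The call was lost without microglia 40, microglia 41 or parabiotic 3 (edgeR adjusted p = 0.0706, 0.0795 and 0.0674) and with no low-count filter (0.0842). Transgenic cells differed from microglia by 1.09 ± 0.62 (SE, edgeR adjusted p = 0.249), by 1.44 without transgenic 26 (edgeR adjusted p = 0.0125) and by 1.55 without both 26 and 27 (edgeR adjusted p = 0.00848).

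Irf4 lies on chromosome 13 from 30749226 to 30766976 on the plus strand. The 243 bases before it that are outside exons (chr13:30748983-30749225, GRCm38.p6, plus strand) are shown beside those of Irf8 because both factors bind composite sites with ETS or AP-1 proteins. None of the motifs searched matched, so no base is in capitals.
Irf4: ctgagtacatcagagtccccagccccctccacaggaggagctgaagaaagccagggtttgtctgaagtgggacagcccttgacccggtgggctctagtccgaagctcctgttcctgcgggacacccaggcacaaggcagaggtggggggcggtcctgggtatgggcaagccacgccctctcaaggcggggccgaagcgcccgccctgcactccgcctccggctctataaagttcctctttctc

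Irf8, which is needed by microglia, monocytes, cDC1 and plasmacytoid cells, ran the other way. Microglia 39, 40 and 41 held 617, 700 and 814 CPM, and parabiotic 3, 11 and 15 held 400, 480 and 542. Transgenic 23, 24, 26 and 27 held 545, 577, 549 and 455 CPM. Both yellow populations lay below all microglia libraries, yet Irf8 stayed among the 3 most abundant factors per kilobase in every group. Parabiotic cells were lower by a log2 difference of -0.58 ± 0.17 (SE, edgeR adjusted p = 0.0224). The edgeR adjusted p rose to between 0.0573 and 0.105 when microglia 40, microglia 41, parabiotic 3 or parabiotic 11 was left out. The transgenic difference of -0.42 ± 0.16 did not pass (SE, edgeR adjusted p = 0.101), although DESeq2 gave an adjusted p of 0.0414. Without transgenic 26 and 27 it was -0.35 (edgeR adjusted p = 0.187).

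Irf8 lies on chromosome 8 from 120736358 to 120756694 on the plus strand. The 250 bases before its first RefSeq start (chr8:120736108-120736357, GRCm38.p6, plus strand) hold 1 match to a BCL6 motif (TTCCNAGAA), in capitals and read on the opposite strand as TTCCGAGAA.
Irf8: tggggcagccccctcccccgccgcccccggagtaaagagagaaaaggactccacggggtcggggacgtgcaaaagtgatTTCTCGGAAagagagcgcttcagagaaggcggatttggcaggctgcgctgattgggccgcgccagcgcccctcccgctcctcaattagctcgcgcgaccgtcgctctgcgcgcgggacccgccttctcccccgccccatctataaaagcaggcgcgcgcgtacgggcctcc
A BCL6 match was present in 1.92% of promoters.

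Batf3, the AP-1 partner that sustains Irf8 expression in cDC1, did not follow either factor. The levels were 7.63, 7.8 and 5.22 CPM in microglia 39, 40 and 41, and 6.06, 5.72 and 9.38 CPM in parabiotic 3, 11 and 15. In transgenic 23, 24, 26 and 27 they were 7.51, 7.98, 4.81 and 2.31 CPM. All groups overlapped, and transgenic 27 was the lowest library. The parabiotic difference from microglia was 0.03 ± 0.41 on the log2 scale, with a 95% interval from -0.87 to 0.94, so changes smaller than these bounds cannot be told from none. Of 10 cDC1 markers 7 rose, 2 fell and 1 did not pass in parabiotic cells against microglia. In this comparison 17.4% of all genes tested were called higher and 17.9% lower. Gcsam rose by 8.67 ± 1.04 and Rab7b by 2.37 ± 0.21, while Tlr3 fell by 2.60 ± 0.47 and Cadm1 fell by 2.07 ± 0.43 (SE). Microglia also expressed the 2 that fell, with means of 147 ± 26.7 CPM for Tlr3 and 211 ± 81.8 for Cadm1 (SD, n = 3). For cDC2, 6 of 10 rose, with Cd209a by 6.73 ± 1.06 and Clec12a by 3.58 ± 0.56, while Itgam and Sirpa, which microglia also express, changed by -1.61 ± 0.15 and -0.75 ± 0.25 (SE). The Sirpa call was lost without any 1 of the 6 libraries compared (edgeR adjusted p = 0.0735 to 0.12).

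Nfil3 encodes a basic leucine zipper repressor that acts early in cDC1 and innate lymphoid development. Its levels in microglia 39, 40 and 41 were 34.2, 51.3 and 86.2 CPM. Those in parabiotic 3, 11 and 15 were 291, 322 and 311 CPM, and those in transgenic 23, 24, 26 and 27 were 159, 162, 121 and 244 CPM. The 3 groups were fully apart, with transgenic libraries between the other 2. Parabiotic cells exceeded microglia by 2.43 ± 0.33, or 5.39-fold (SE, edgeR adjusted p = 0.000245), and this held under all 20 alternatives with log2 values of 2.16 to 2.84. Transgenic cells exceeded microglia by 1.58 ± 0.31, or 3-fold (SE, edgeR adjusted p = 0.00815), but not at the threshold without microglia 40 (edgeR adjusted p = 0.0534). Without transgenic 26 and 27 that difference was 1.48 (edgeR adjusted p = 0.00964). Transgenic and parabiotic cells differed by -0.85 ± 0.29, which did not pass (SE, edgeR adjusted p = 0.1). DESeq2 gave 0.0447 for that difference, and edgeR gave 0.03 without transgenic 27, 0.0494 without microglia 41 and 0.0561 without transgenic 26 and 27, when it was -0.96.

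Nfil3 lies on chromosome 13 from 52967209 to 52981073 on the minus strand. The 216 bases before it that are outside exons (chr13:52981074-52981289, GRCm38.p6, minus strand) are shown because it differed in both yellow populations. Capitals mark an E-box, CAGCTG.
Nfil3: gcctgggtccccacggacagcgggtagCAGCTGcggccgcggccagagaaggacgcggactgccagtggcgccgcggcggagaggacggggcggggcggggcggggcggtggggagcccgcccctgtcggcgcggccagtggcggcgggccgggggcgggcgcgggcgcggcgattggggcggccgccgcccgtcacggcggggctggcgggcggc

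Zeb2, the zinc finger repressor that NFIL3 opposes and that monocytes, plasmacytoid cells and microglia express, gave no difference past the threshold. Microglia held 306, 395 and 348 CPM, parabiotic cells 326, 342 and 370, and transgenic cells 376, 441, 269 and 287, in the same library order as above. The groups overlapped throughout. The parabiotic difference was -0.01 ± 0.20 on the log2 scale, with a 95% interval from -0.45 to 0.43. An antisense gene, Zeb2os, shares 653 exon bases with Zeb2 and held 2714 counts against 121708 for Zeb2. The library kit does not mark strand, so reads from that stretch cannot be assigned to either gene. Zeb2os itself held 7.6 to 10.6 CPM in microglia, 5.05 to 6.02 in parabiotic and 7.47 to 9.89 in transgenic libraries.

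Id2 encodes an inhibitor that binds E proteins and keeps them off DNA, and it is needed for cDC1 and innate lymphocytes. Its levels were 491, 385 and 494 CPM in microglia, 385, 484 and 403 in parabiotic and 450, 393, 748 and 1093 in transgenic libraries. Transgenic 26 and 27 were the highest of all 10 libraries, and the others overlapped. No comparison passed: the parabiotic difference from microglia was -0.11 ± 0.33 and the transgenic one 0.56 ± 0.31 (SE, edgeR adjusted p = 0.828 and 0.239). Without transgenic 26 and 27 the latter was -0.12.

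Tcf4, the E protein that commits plasmacytoid cells and that ID2 inhibits, overlapped between all groups: 151, 159 and 175 CPM in microglia, 125, 151 and 125 in parabiotic and 156, 147, 153 and 123 in transgenic libraries. The parabiotic range lay low but overlapped the microglia at parabiotic 11. The difference of -0.27 ± 0.15 did not pass (SE, edgeR adjusted p = 0.192), with a 95% interval from -0.61 to 0.06.

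Bcl6, a repressor of germinal centre B cells that also supports dendritic cells, held 109, 92.6 and 90.2 CPM in microglia, 82.8, 102 and 77.5 in parabiotic and 117, 98.6, 87.5 and 148 in transgenic libraries. All groups overlapped, and the highest library was transgenic 27. The parabiotic difference was -0.15 ± 0.21 on the log2 scale, with a 95% interval from -0.61 to 0.30.

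Over the 10 factors, 4 rose, 1 fell and 5 did not pass in parabiotic cells against microglia, where 35.3% of all genes tested were called (17.4% higher and 17.9% lower). The libraries of 5 factors did not overlap between these groups, against 60.3% of all genes. The count called was thus higher than the share of all genes, and the non-overlapping count was lower, and nothing particular to these genes is read from either. The median log2 difference over the 10 was 0.01, and -0.02 over all genes tested; the median absolute difference was 0.42 against 0.60. In transgenic cells against microglia 2 factors rose, Nfil3 and Bcl11a, and 0 fell, where 13.7% of all genes were called (8.88% higher and 4.79% lower). Without microglia 40 the count was 1, and without transgenic 26 and 27 it was 4. The libraries of 3 factors did not overlap, against 30.3% of all genes. Between transgenic and parabiotic cells edgeR called 0 of 10, where 10.1% of all genes were called (7.63% higher and 2.42% lower); 2 had an unadjusted p under the threshold, limma-voom called 0 and DESeq2 called 1. Irf4, Nfil3 and Bcl11a did not overlap between these groups, 3 of 10 against 22.7% of all genes. All 3 comparisons share libraries, so their values are not independent of one another.

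**Figure D2:**
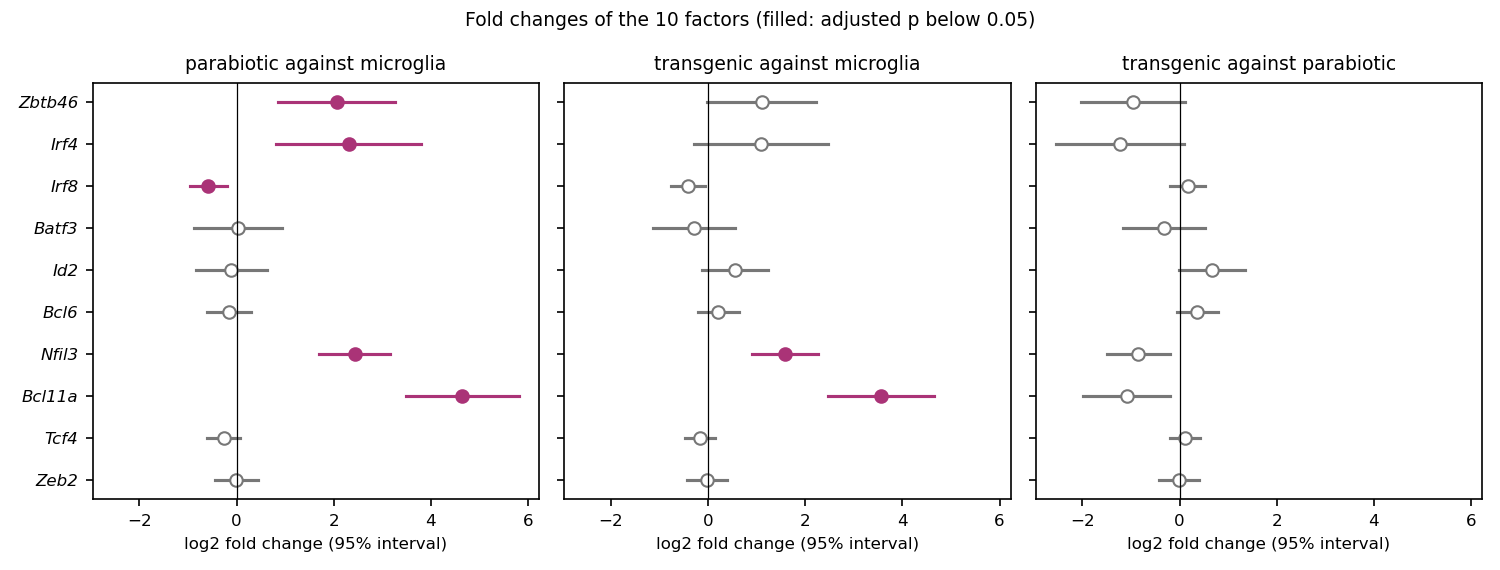
Log2 fold changes of the 10 factors are plotted with their 95% intervals for each of the 3 comparisons; filled points have an edgeR adjusted p below 0.05. Bcl11a at 4.65 and 3.56 and Nfil3 at 2.43 and 1.58 were called in both comparisons with microglia, and no point is filled for transgenic against parabiotic cells.

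In all, 4 pairs of genes that act in 1 circuit were compared as ratios within each library, which do not depend on scaling between libraries. Exact two-sided permutation tests over libraries were adjusted over the 12 tests. With 3 libraries against 3 the smallest possible p is 0.1, and with 3 against 4 it is 0.0286. Nfil3 to Zeb2 counts stood at ratios of 0.112, 0.13 and 0.248 in microglia, 0.894, 0.943 and 0.84 in parabiotic and 0.422, 0.367, 0.449 and 0.85 in transgenic libraries. Parabiotic cells thus held almost as many counts of Nfil3 as of Zeb2, and every microglia library held far fewer of Nfil3. These counts are not scaled to exon length, which is 2026 bases for Nfil3 and 19942 for Zeb2. Per kilobase the Nfil3 mean was above that of Zeb2 in every group. It was 28.2 against 17.5 CPM per kb in microglia, where the libraries overlapped. In parabiotic cells it was 152 against 17.3, and in transgenic cells 84.6 against 17.2. The merged length of Zeb2 may include exons that its transcripts do not use, so the order in microglia is uncertain. The mean log2 ratio was higher by 2.54 in parabiotic cells than in microglia (exact permutation p = 0.1, adjusted 0.2) and by 1.69 in transgenic cells (exact permutation p = 0.0286, adjusted 0.2).

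The ratio of Irf4 to Irf8, factors of cDC2 and cDC1, was 0.0174, 0.0112 and 0.00577 in microglia and 0.128, 0.0604 and 0.0648 in parabiotic libraries. In transgenic libraries it was 0.0443, 0.037, 0.00357 and 0.0407. Parabiotic libraries lay above all others, and transgenic 26 below all others. The parabiotic mean was higher than that of microglia by 2.94 on the log2 scale (exact permutation p = 0.1, adjusted 0.2), and the transgenic mean by 1.09 (exact permutation p = 0.4, adjusted 0.48).

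For Batf3 against its relative Batf the ratio was 0.392, 0.523 and 0.415 in microglia, 0.193, 0.199 and 0.284 in parabiotic and 0.39, 0.388, 0.367 and 0.0856 in transgenic libraries. The parabiotic libraries lay below all microglia (log2 difference -0.99, exact permutation p = 0.1, adjusted 0.2). Of the pair, Batf rose by 0.99 ± 0.26 (SE, edgeR adjusted p = 0.0117), and the Batf3 value is given above. The ratio of Id2 to Tcf4 was 2.43 to 3.25 in microglia, 3.08 to 3.22 in parabiotic and 2.67 to 8.88 in transgenic libraries, and the groups overlapped. Its log2 differences from microglia were 0.17 and 0.60 (exact permutation p = 0.4 and 0.314).

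**Figure D3:**
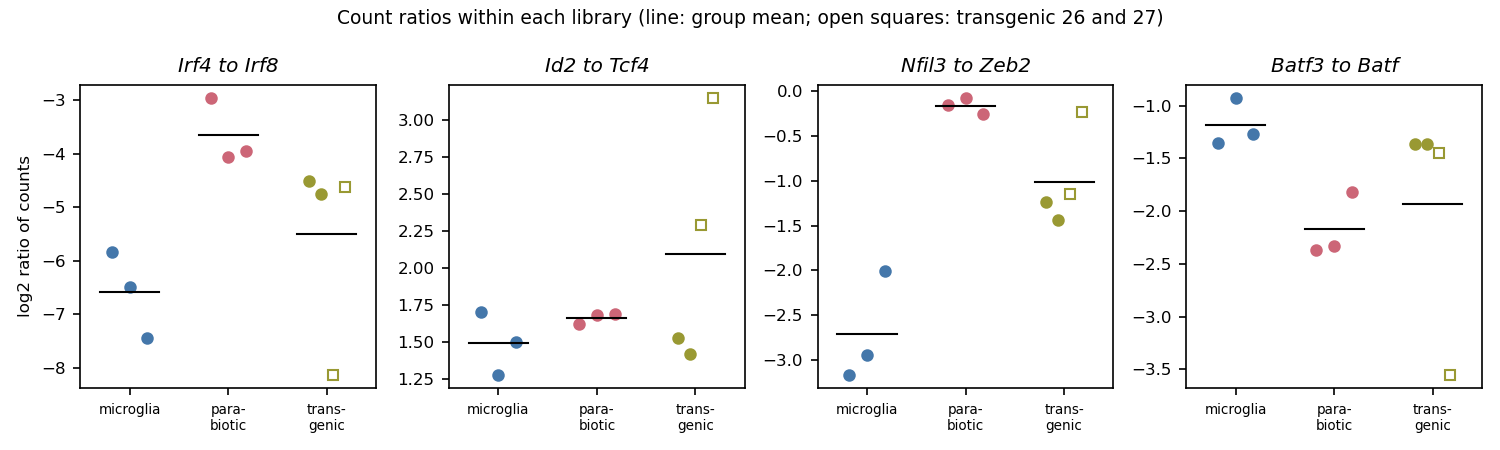
Log2 ratios of counts within each library are plotted by group for 4 pairs of factors; points are libraries, lines are group means, and open squares are transgenic 26 and 27. Parabiotic libraries sit above all microglia for Irf4 to Irf8 and for Nfil3 to Zeb2 and below them for Batf3 to Batf.

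Genes that work with the factors were taken from lists that were chosen with earlier results of these data known. The list counts are to be read against the 35.3% of all genes called in parabiotic cells against microglia. In parabiotic cells against microglia 0 of 7 other IRF genes rose and 2 fell: Irf1 changed by -1.78 ± 0.24 and Irf7, a driver of the interferon response, by -1.20 ± 0.37 (SE, edgeR adjusted p = 0.000235 and 0.0259). The Irf7 call was lost without microglia 39, microglia 41 or any 1 of the parabiotic libraries (edgeR adjusted p = 0.0541 to 0.105), and 4 of the 7 were called without transgenic 27. Of 9 genes of the AP-1 family, only some of whose proteins join IRF4 and IRF8 on composite sites, Fosl2 (edgeR adjusted p = 0.00142) and Batf rose. Batf rose by 0.99 ± 0.26, and Jun and Jund changed by -2.12 ± 0.26 and -1.06 ± 0.27 (SE). Fosl2 and Batf thus moved opposite to Jun and Jund, and the other 5 did not pass.

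Among 5 E proteins and ID proteins other than the members, Id3 rose by 2.68 ± 0.35 and Tcf12, an E protein, by 0.63 ± 0.14 (SE, edgeR adjusted p = 0.000164 and 0.00445). Of 6 corepressors and antagonists of BCL6, Bcor fell by 1.78 ± 0.25 (SE, edgeR adjusted p = 0.000271) and 5 did not pass; 2 of the 6 were called without parabiotic 15 or transgenic 23, and 3 without transgenic 26. Of 4 relatives of the ZEB, BCL11 and NFIL3 families 3 fell, among them Hlf at -5.46 ± 0.81 and Zeb1 at -1.66 ± 0.38 (SE, edgeR adjusted p = 0.000394 and 0.00623). HLF belongs to the PAR proteins, which share DNA sites with NFIL3.

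Of 21 further transcription factors of dendritic cells, 8 rose, 1 fell and 12 did not pass, with a median log2 difference of 0.41 against -0.02 for all genes tested. Runx3 and Runx2 rose by 5.88 ± 0.54 and 5.19 ± 0.70, and Ikzf1, which encodes Ikaros, fell by 1.18 ± 0.16 (SE, edgeR adjusted p = 1.90e-05, 0.000214 and 0.000235). Of 11 cytokine receptors, 6 rose and 2 fell. Flt3 changed by 6.78 ± 0.71, Il7r by 2.79 ± 0.35, Csf1r by -2.36 ± 0.26 and Csf3r by -1.54 ± 0.41 (SE). The Csf3r call was lost without parabiotic 3 (edgeR adjusted p = 0.0518). Csf1r is the receptor on which microglia depend, and its direction was that of the microglia markers, of which 10 of 10 fell.

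**Figure D4:**
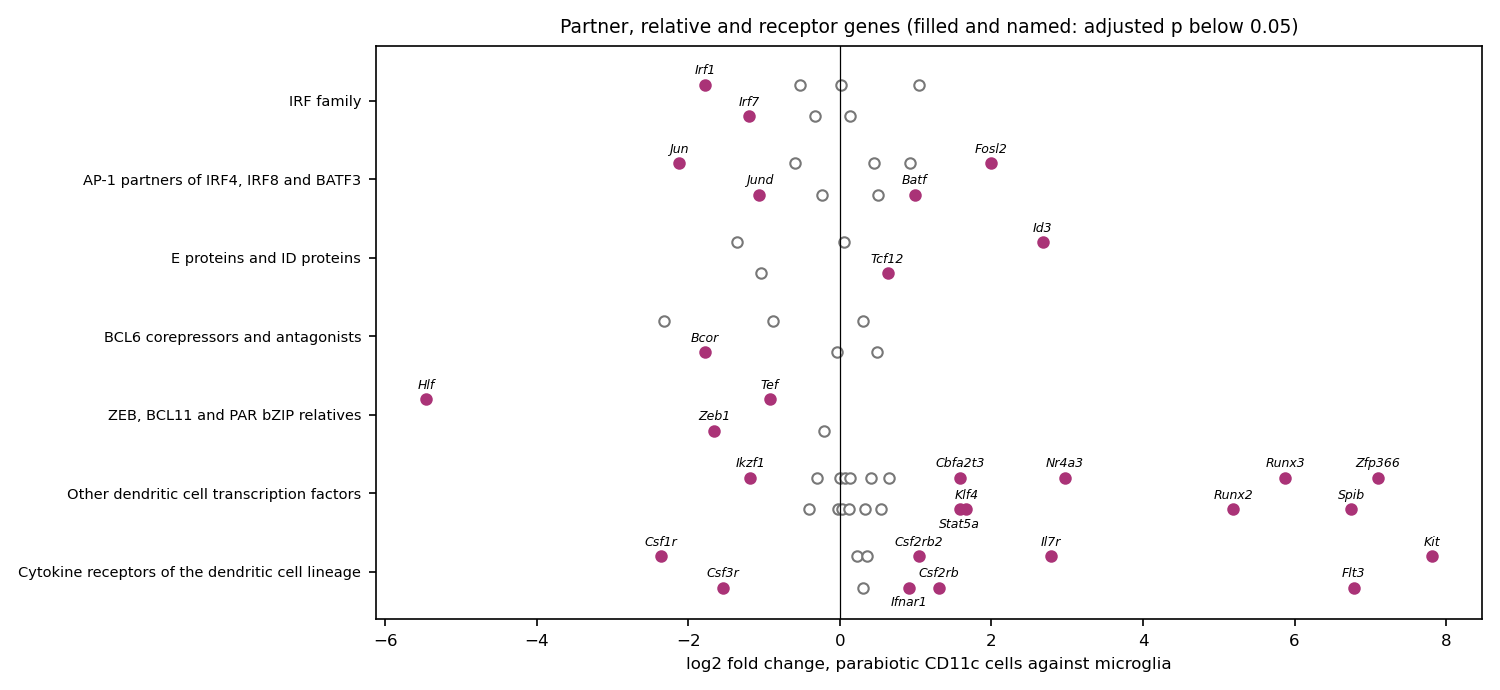
Each point is a gene from a list of partners, relatives or receptors, placed by its log2 fold change in parabiotic cells against microglia; filled and named points have an edgeR adjusted p below 0.05. Runx3 at 5.88 and Flt3 at 6.78 lie far to the right, and Hlf at -5.46 far to the left.

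In transgenic cells against microglia, where 13.7% of all genes were called against 35.3% for parabiotic cells, fewer of these genes passed as well. Id3 rose by 1.94 ± 0.32, Runx3 by 4.82 ± 0.51 and Flt3 by 5.42 ± 0.66, and Jun fell by 1.39 ± 0.23 (SE, edgeR adjusted p = 0.00346, 0.000233, 0.000549 and 0.00358). These 4 kept their call under every alternative run, and without transgenic 26 and 27 their differences were 1.67, 5.19, 6.06 and -1.18. Of the 21 further transcription factors 4 rose and 1 fell, and of the 11 receptors 3 rose and 1 fell. The former count of 5 called became 2 without microglia 39, 2 without microglia 40, 3 without microglia 41 and 8 without transgenic 26. In transgenic against parabiotic cells 10.1% of all genes were called. Of the 21 further factors 1 rose and 1 fell, and of the 11 receptors 1 rose and 1 fell. The IRF list, the BCL6 list and the list of ZEB, BCL11 and NFIL3 relatives each had 1 gene higher. Each of these counts called fell to 0 under at least 1 alternative setting. Bcor, from the BCL6 list, was higher by 1.08 ± 0.23 (SE, edgeR adjusted p = 0.0129), but not past the threshold without parabiotic 3 or 11 (0.0714 and 0.0727). Without transgenic 26 and 27 it was higher by 1.26 (edgeR adjusted p = 0.000284).

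The genes whose level across the 10 libraries was most like that of each strongly varying factor were found by the root mean square difference of centred log2 CPM. For Nfil3 they were Id3 (0.19) and Nceh1 (0.21), against a spread of Nfil3 about its own mean of 1.07. For Zbtb46 they were Itpr1 (0.23) and Ece1 (0.26), against a spread of 1.05. Card10 (0.32) and Ppp1r16b (0.36) were nearest to Irf4, whose spread was 1.37. Sntb1 (0.34) and Stap1 (0.36) were nearest to Bcl11a, whose spread was 1.92. The parabiotic mean of Id3 was 44.2 ± 0.71 CPM, the transgenic mean 26.5 ± 11.4 and the microglia mean 6.9 ± 2.44 (SD), which ranked the groups as Nfil3 did. These are descriptions over libraries that share groups, and nothing is read from them about regulation.

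RefSeq promoters were searched for 9 of the 10 factors, and Tcf4, on chromosome 18, was left out of the search. Each 250-base window before the start was searched on both strands for 8 motifs, of which the E-box includes CACCTG. They were the interferon-stimulated element (GAAA, any 2 bases, GAAA), found in 2.98% of all promoters, the ETS-IRF composite (GGAA, any 2 bases, GAAA) (2.3%), the AP-1 site TGANTCA (6.75%), the D-box TTANGTAA read by NFIL3 and PAR proteins (2.06%), CACCTG (17.2%), the E-box CANNTG (66.2%), TTCCNAGAA for BCL6 (1.92%) and GAGGAAGT for PU.1 (2.44%). The ETS-IRF composite matched at 1 of the starts of Bcl6 and AP-1 at 1 of the starts of Zeb2. The interferon-stimulated element, the D-box and the PU.1 site matched in none of the 9, which says only that those letters are not in these windows. The E-box, present in most promoters, was the only motif matched in Nfil3 and Bcl11a, and likewise in Batf3 and Id2.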

How the data were processed

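RNA was measured in 10 libraries of sorted mouse brain cells (3 microglia, 3 parabiotic and 4 transgenic). The deposited table holds integer read counts for each Ensembl identifier. FastQC 0.11.5, STAR 2.5.3a, DESeq2 and GRCm38 are named per the submitters' processing notes. For the program that counted reads, its annotation and its strand option: not given in the sources used here. Polyadenylated RNA was amplified with a template-switching kit and the library kit does not mark strand, per the labels' protocols. Symbols came from GENCODE M21 (28492 of 28585 identifiers).

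Genes were filtered by filterByExpr (13434 removed, 15151 tested), scaled by TMM and fitted over all 10 libraries in edgeR 4.0.16 (R 4.3.3) with robust quasi-likelihood tests, Benjamini-Hochberg adjustment and a threshold of 0.05. CPM use TMM-scaled totals. DESeq2 1.42.0 and limma 3.58.1 (voom) were alternatives, beside other scalings and filters, a library number term, fits of 2 groups and leaving out each library. Ratios of counts (0.5 added) were tested by exact permutation. On simulated data for parabiotic against microglia (15151 genes), the test called 85 of 100 genes changed 4-fold, 28 of 100 changed 2-fold and 4 of 14951 unchanged. The simulation used the spread fitted to these data and left nearly all genes unchanged. In the real comparison 35.3% of genes were called, so the simulated rates need not hold there. Replicate libraries differed beyond sampling noise.

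The members and gene lists were chosen with earlier results of these data known, and the motifs after seeing the data. All members are named. From the lists described, names were drawn from the up to 2 genes called in each direction with the lowest p, not all of which are printed, and 1 is not reported here. Cd79b and H2-Eb2 were named outside that rule after their values were seen. Also named are the 2 genes nearest in pattern to each member whose group means span at least 1 on the log2 scale. Promoter sequences are RefSeq's (GRCm38.p6), without annotated exon bases. Leaving out transgenic 26 and 27 together was chosen after seeing the data.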

Additional observations from a re-analysis of the deposited data

Results flagged for a closer look

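In 34 sets of 4 transgenic values, 6 held 1 library whose gap to the nearest other, as a share of the range, passed Dixon's 95% critical value for 4 values; chance gives about 1 in 20. All 6 were transgenic 26 or 27, the libraries with separate numbers. The log2 ratio of Irf4 to Irf8 was -8.13 in transgenic 26, against -4.75 to -4.50 in the others. The log2 ratio of Batf3 to Batf was -3.55 in transgenic 27, against -1.45 to -1.36. Bcor was at 27.5 CPM in transgenic 26, against 50.5 to 53.3, and Fosl2 at 67.8 CPM, against 210 to 226. In transgenic 27, Id3 was at 43.4 CPM, against 18.5 to 22.4, and Zeb1 at 6.45 CPM, against 20.8 to 21.6.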

How the results depend on the processing

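No paired analysis was possible because the groups share no replicate numbers. Nfil3 and Bcl11a in parabiotic cells against microglia kept their calls under all 20 alternatives. Of the member values under alternatives, 552 kept direction and side of the threshold, 8 gained a call, 11 lost one and 29 changed sign, none of them called. The factors called in parabiotic cells against microglia numbered 2 to 5 when single libraries were left out. For transgenic against microglia the range was 1 to 3, with 4 called without transgenic 26 and 27. For transgenic against parabiotic it was 0 to 1, and DESeq2 called 1. Over all genes, parabiotic against microglia gave 5347 calls, and 8334 without transgenic 26 and 27. Transgenic against microglia gave 2070, against 3437 with DESeq2, 1229 with only those 2 groups, 1303 with the library number term and 746 to 2684 with single libraries left out. Transgenic against parabiotic gave 1523, against 2419 with DESeq2, 999 with only those 2 groups, 3482 without transgenic 26 and 27 and 830 to 2510 with single libraries left out. Batf3, parabiotic against microglia, moved from 0.03 to -0.05 with upper quartile scaling, -0.04 with library totals, -0.03 with at least 5 CPM in 3 libraries and -0.22 to 0.17 with single libraries left out. With the library number term, and without transgenic 26 and 27, Batf3 was 0.17 and 0.17 for transgenic against microglia and 0.13 and 0.12 against parabiotic. Id2 was -0.12 and -0.12, then -0.01 and -0.02, and Zeb2 0.23 and 0.22, then 0.24 and 0.23, in the same order. Zeb2, transgenic against parabiotic, was 0.02 with upper quartile scaling, 0.02 with library totals and 0.01 with at least 5 CPM in 3 libraries. With single libraries left out Zeb2 ran from -0.11 to 0.05 for parabiotic against microglia, -0.17 to 0.06 for transgenic against microglia and -0.16 to 0.07 for transgenic against parabiotic. The cause was not tested. Of list counts, 240 of 1243 moved by more than 1.5 times. All 92 ratio values kept their direction, and their tests were not repeated.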
